A study of Mus musculus with 3 samples.

Results

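The caseins are the main proteins of milk, and 4 of their genes (Csn1s1, Csn2, Csn1s2a and Csn3) were followed here in epithelial cells of the aged mouse thymus, an organ that makes no milk. They are 4 of the 32293 features of the count matrices and were taken by symbol. They were chosen with their UMIs in epithelial barcodes of these libraries already seen, so their levels, their co-detection and their pairing with Aire are given as descriptions with no test. Epithelial barcodes were called barcodes with at least 2 Epcam unique molecular identifiers (UMIs, counted molecules) and no UMI of Pecam1 or Pdgfra, and 1761 of 17677 called barcodes met that rule.

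Single-cell RNA sequencing had been done on CD45-depleted stroma from thymi of untreated C57BL/6 mice that were 20 months old. Of the 3 libraries, 2 came from mice of the Foxn1 lineage trace (Foxn1Lin), 1 female and 1 male, and the third from male wild-type mice, so that each group is represented once. Foxn1 is the transcription factor of thymic epithelial cells (TECs), and in the lineage trace Foxn1-cre removes a stop cassette before tdTomato, after which a cell and its descendants carry the reporter. The labels give pools of 10 to 15 thymi per library, so a library is a mixture of animals and sex and genotype cannot be told apart from the library. They also call all pooled mice female in the extraction text while the sample fields name 2 male libraries, and they give the wild-type library a PECAM1+ cell type that its title does not carry. The sample fields were followed, and Pecam1 marked 849 barcodes of the wild-type library as endothelial against 917 epithelial ones.

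Caseins are made by secretory epithelium of the lactating mammary gland, where prolactin acts through STAT5 on their promoters. Alpha- and beta-caseins (Csn1s1, Csn1s2a, Csn2) carry calcium phosphate in the micelle, and kappa-casein (Csn3) coats and stabilises it. Medullary TECs (mTECs) transcribe many genes that otherwise belong to single peripheral tissues, a process called promiscuous gene expression, and so present these proteins to developing T cells. The nuclear protein Aire drives a large part of it, and each such gene is typically switched on in a minority of mTECs.

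The members lie together on chromosome 5 (GRCm38, GENCODE vM21) within 266.5 kb. Csn1s1 (ENSMUSG00000070702) is at chr5:87666208-87682578 on the plus strand, and Csn2 (ENSMUSG00000063157) is at chr5:87692624-87699630 on the minus strand. Csn1s2a (ENSMUSG00000061937) is at chr5:87774567-87788797 and Csn3 (ENSMUSG00000001622) at chr5:87925579-87932665, both on the plus strand. Csn3 overlaps the antisense gene 1700066N21Rik, and Csn1s2b, Prr27 and Odam lie between Csn1s2a and Csn3. The windows from 250 bases before to 50 bases after the RefSeq start (GRCm38.p6) were available for 3 of the 4 members, not for Csn3. They were searched for TTCNNNGAA, the palindromic core that STAT5 binds, which reads the same on both strands. Each of the 3 windows held 1 match, against 2726 of 32851 windows of the same length in all (8.30%). The matches are shown because they are a sequence feature that the 3 members searched have in common, with the motif in capitals and 10 bases on each side, 5′ to 3′ on the strand of the gene:
Csn1s1 (chr5:87666098-87666126, +): tttgtaacaaTTCTTAGAAtttatgtaaa
Csn2 (chr5:87699500-87699528, -): tcacgtagacTTCTTGGAAttgaagggac
Csn1s2a (chr5:87774460-87774488, +): ttatagtgctTTCTTAGAAttacaatgac
The motif began 100 bases before the Csn1s1 start and 93 bases before the Csn2 start. In Csn1s2a it began 20 bases after the RefSeq start, which is 97 bases before the GENCODE start. For Csn2 the distance is to the RefSeq start, and by the GENCODE coordinates given above the site began 112 bases inside the gene, under 1 exon of a longer transcript. A match of letters is not a measured binding site, and binding was not measured in these samples.

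The values below follow the order Foxn1Lin female, Foxn1Lin male, wild type male unless stated. Called barcodes held 53366016, 33386621 and 61258534 UMIs. Epithelial barcodes numbered 408, 436 and 917, with median depths of 11138, 12669.5 and 16836 UMIs. Each of the 8 TEC markers was detected in all 3 sets, and Krt8 had a UMI in at least 92.9% of epithelial barcodes. Parathyroid markers were also present, with summed levels of 3251, 3119 and 2610 counts per 1e6 UMIs and a Pth UMI in 64.0%, 9.40% and 13.7% of epithelial barcodes. Of the epithelial Pth UMIs, 96.3%, 99.7% and 99.7% were in 4, 2 and 1 barcodes with 100 or more each, of which 0 held Csn2. Such barcodes meet the epithelial rule, so the epithelial set and the denominators below include them. Csn2 had a UMI in 37 of 87, 6 of 15 and 19 of 30 barcodes with 2 or more of the 4 parathyroid markers. Among the other epithelial barcodes it was 96 of 321, 110 of 421 and 234 of 887, a lower share in each library. The intervals of these shares overlapped in both Foxn1Lin libraries and not in wild type male. Why the shares differed was not tested. The summed level of the parathyroid markers was 240.3, 8.81 and 7.56 in endothelial barcodes. The female library stood apart in its background, with 26.5% of all UMIs outside called barcodes against 12.9% and 9.46%, and in its sequencing saturation of 52.1% against 81% and 72.8%. Pairs of libraries shared 3 to 14 called barcodes and 0 epithelial ones. All intervals are 95% intervals of counting error (Clopper-Pearson for shares, Poisson for summed UMIs), so they leave out the spread between animals and libraries.

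Csn2, which encodes beta-casein, was the casein most often detected. It had a UMI in 133 of 408 epithelial barcodes of Foxn1Lin female (32.6%, interval 28.1 to 37.4). The share was 116 of 436 in Foxn1Lin male (26.6%, 22.5 to 31.0) and 253 of 917 in wild type male (27.6%, 24.7 to 30.6). Their intervals overlapped, and after each barcode was thinned to 2000 UMIs they were 16.8% (13.3 to 20.9), 17.5% (14.0 to 21.5) and 18.6% (16.1 to 21.3). The summed level differed more. As counts per 1e6 epithelial UMIs (CPM), Csn2 was at 226.6 (214 to 239), 560.1 and 374.9. The female and male lineage-trace libraries thus had like shares of positive barcodes and unlike amounts of transcript, and with 1 library per group that contrast has no replicate check.

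Endothelial barcodes (at least 2 Pecam1 UMIs, no Epcam or Pdgfra) and fibroblast barcodes (at least 2 Pdgfra UMIs, no Epcam or Pecam1) served as cells that should lack caseins. Csn2 had a UMI in 3.81%, 2.85% and 3.65% of endothelial barcodes, whose median depths were 4115, 7432.5 and 6985 UMIs. It had a UMI in 4.19%, 4.24% and 3.71% of fibroblast barcodes, with median depths of 7335.5, 9419.5 and 8243.5. At 2000 UMIs each, the Csn2 share was 1.58%, 0.39% and 1.24% in endothelial and 0.89%, 1.13% and 1.0% in fibroblast barcodes, so the epithelial shares stood far above both types at matched depth. Csn2 CPM was 7.96, 3.02 and 8.23 in endothelial barcodes, and the epithelial level was 28.5, 185 and 45.6 times as high. Against fibroblast barcodes, at 5.52, 4.21 and 4.43 CPM, it was 41.0, 133 and 84.5 times as high.

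**Figure D1:**
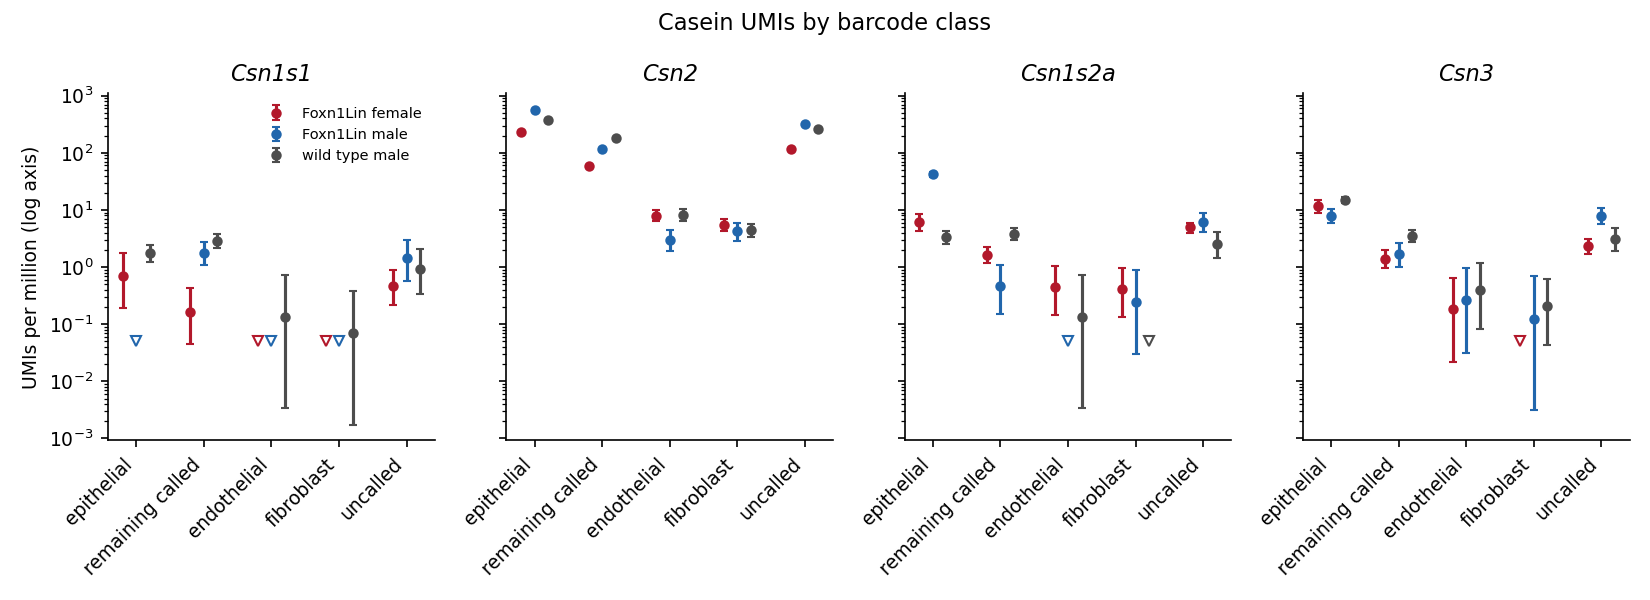
Summed casein UMIs per 1e6 (log axis) in each class of barcodes, 1 panel per casein and 1 colour per library, with points for the sums, bars for the 95% Poisson interval and open triangles at the foot for classes with 0 UMIs. Csn2 sat between 226.6 and 560.1 in epithelial barcodes and between 3.02 and 8.23 in endothelial and fibroblast ones, while barcodes not called as cells reached 115.9 to 319.0.

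Barcodes of the raw matrices that were not called as cells hold RNA released from broken cells, and Csn2 was frequent there. Its level in all uncalled barcodes was 115.9 CPM (111 to 121), 319.0 CPM (303 to 335) and 257.7 CPM (245 to 270). The pooled epithelial level was only 1.96, 1.76 and 1.45 times as high as that. There were 2192, 1500 and 1596 uncalled barcodes with a Csn2 UMI, of which 41, 56 and 40 had at least 2, and the highest counts were 4, 11 and 5. Uncalled barcodes had a median depth of 1 UMI in each library, but those with Csn2 were mostly deeper. In Foxn1Lin female 2067 of them were in the 66345 uncalled barcodes of over 100 to 500 UMIs, of median depth 254. Of these 66345 barcodes 39 had at least 2 Csn2 UMIs. In the male libraries 1230 and 1227 were in barcodes of 23 to 89 and 29 to 112 UMIs, with median depths of 44 and 53. Uncalled barcodes that carried at most 100 UMIs had 66.0, 345.5 and 302.0 Csn2 CPM, which moves the female value down and the male values up. The 1009, 282 and 740 uncalled barcodes of over 500 UMIs had 62.4, 32.4 and 52.7 Csn2 CPM, below the level of all uncalled barcodes in each library. The ratio of Csn2 UMIs to Aire UMIs was 1.69, 4.49 and 1.46 in uncalled and 1.10, 3.34 and 2.16 in epithelial barcodes. That ratio was 1.16, 1.92 and 1.94 in endothelial and 2.00, 4.25 and 1.10 in fibroblast barcodes, where it rests on 8 to 76 Aire UMIs per library. Of the endothelial Aire UMIs, 1 barcode held 18 of 76 in Foxn1Lin female and 20 of 32 in wild type male. How many of the Csn2 UMIs in endothelial and fibroblast barcodes were free RNA was not tested, and the highest counts in endothelial barcodes were 9, 1 and 16 UMIs.

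Among called barcodes, 45.4%, 75.2% and 65.9% of all Csn2 UMIs were in the epithelial set, and 49.2%, 23.8% and 32.9% were in barcodes that met none of the 3 rules. Most of the latter came from barcodes with an Epcam UMI together with a Pecam1 or Pdgfra UMI. There were 395, 175 and 407 of those, holding 969, 1113 and 2875 Csn2 UMIs, with 10 or more in 31, 19 and 64 of them. The part of doublets and of stray UMIs in these barcodes was not tested. Barcodes with 10 or more Csn2 UMIs numbered 79, 77 and 224 in all called barcodes, of which 41, 56 and 141 were epithelial, 0, 0 and 2 endothelial and 0 fibroblast. At the edge of the rule, barcodes with exactly 1 Epcam UMI, which are left out, had a Csn2 UMI in 15.6%, 16.9% and 21.7%, and those with exactly 2, which are kept, in 22.2%, 23.4% and 28.1%.

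Within positive barcodes Csn2 counts spanned a wide range. The median was 5, 9 and 13 UMIs and the mean 9.77, 33.9 and 28.5, so a tail of high barcodes carried the sum. A count of 1 UMI was found in 28, 21 and 46 barcodes, and 2 to 9 UMIs in 64, 39 and 66. The remaining 41, 56 and 141 barcodes had 10 or more, of which 0, 11 and 11 had 100 or more. The top 10% of the positive barcodes (14, 12 and 26 of them) held 45.2%, 47.4% and 49.9% of the Csn2 UMIs, a like share in each library. The threshold of 10 is a round number and no gap in the data: 12, 7 and 8 barcodes had 8 or 9 UMIs and 4, 2 and 9 had 10 or 11.

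In its highest barcodes Csn2 was among the most abundant transcripts of the cell. The peak counts were 72, 349 and 646 UMIs, and the largest fraction of a barcode's UMIs was 0.709%, 1.46% and 3.32%. Among barcodes with 10 or more UMIs the median level was 1128, 2607 and 1445 CPM. Ranked among all genes of the same barcode, Csn2 stood at a median rank of 131, 32.5 and 76, and it was among the 10 most abundant genes in 1, 8 and 9 barcodes. The best rank was 8, 6 and 2. Leaving out the barcode with the most casein UMIs lowered the epithelial level to 214.4, 512.4 and 341.6 CPM, so no barcode decided it.

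**Figure D2:**
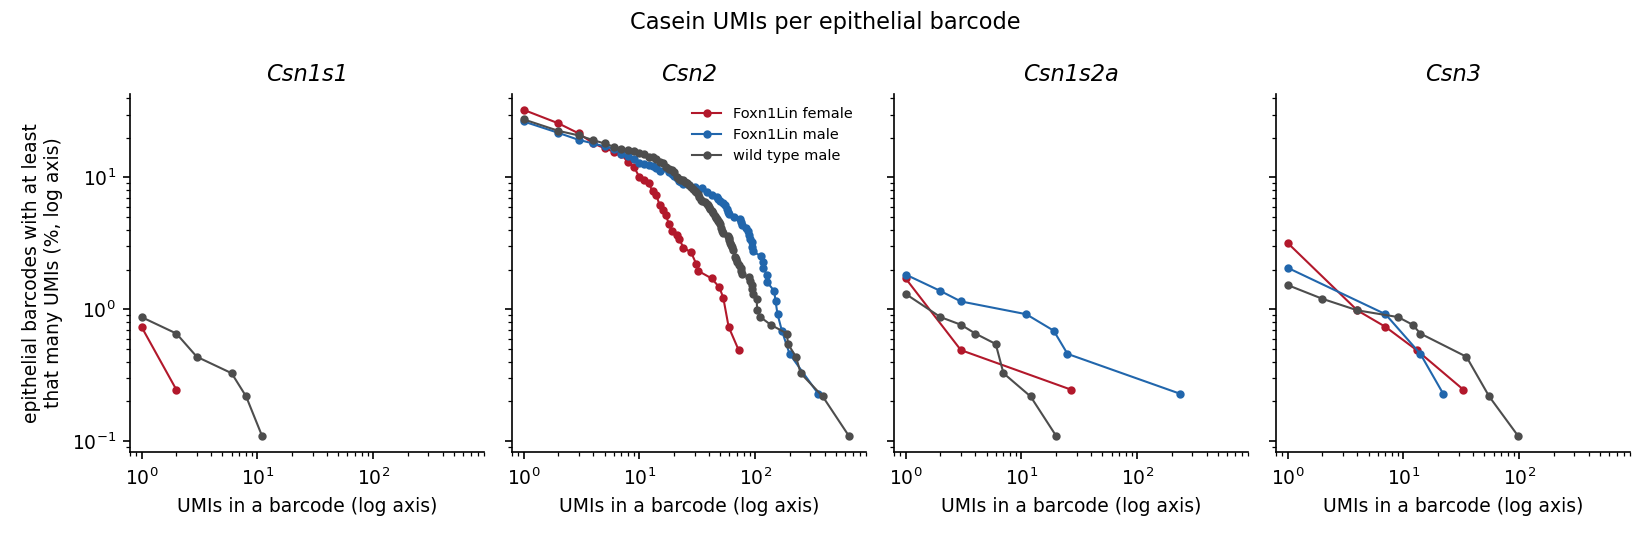
Share of epithelial barcodes (%, log axis) with at least the number of casein UMIs on the x axis (log axis), 1 panel per casein and 1 line per library. Csn2 started near 30% of barcodes in every library and ran out to 72, 349 and 646 UMIs, with the female line below both male lines beyond about 10 UMIs, while the other caseins started at or below 3.19%.

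The other caseins were rare. Csn3 (kappa-casein) had a UMI in 13 of 408, 9 of 436 and 14 of 917 epithelial barcodes, with 66, 55 and 283 UMIs in sum and 33, 22 and 98 in the highest barcode. Csn1s2a was found in 7, 8 and 12 barcodes with 35, 294 and 64 UMIs, and its peaks were 27, 232 and 20. Csn1s1 was found in 3, 0 and 8 barcodes with 4, 0 and 34 UMIs. For Foxn1Lin male the count of 0 allows a share of up to 0.688% of epithelial barcodes with a UMI, taken as 3 of 436 barcodes, and the Clopper-Pearson interval reaches 0.843%. In that library 19 Csn1s1 UMIs were found elsewhere among the called barcodes, all outside the 3 defined types.

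Their sums rested on very few cells. A lone barcode held 78.9% of the Csn1s2a UMIs of Foxn1Lin male, 77.1% of those of Foxn1Lin female and 31.2% of those of wild type male. The epithelial Csn1s2a level of 41.9 CPM in Foxn1Lin male, against 6.10 and 3.33 in the other libraries, is therefore mostly the value of 1 barcode. Csn3 was at 11.5, 7.84 and 14.7 CPM, and the uncalled barcodes had 2.33, 7.89 and 3.13 Csn3 CPM. For Csn1s2a the uncalled level was 4.93, 6.07 and 2.50 CPM, close to the epithelial level in Foxn1Lin female and wild type male. In endothelial and fibroblast barcodes each of these 3 genes had 0 to 5 UMIs per library and type. UMI counts at the 3′ end do not scale with transcript length, but capture differs between transcripts, so the order of the caseins describes these libraries and not relative transcription rates.

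Caseins were found together far more often than apart from Csn2, although detecting any pair of genes is easier in a deep barcode. Another casein was present in 17 of 133 Csn2-positive barcodes of Foxn1Lin female (12.8%, 7.63 to 19.7) against 2 of 275 Csn2-negative ones (0.727%). The counts were 12 of 116 (10.3%) against 4 of 320 (1.25%) in Foxn1Lin male and 32 of 253 (12.6%) against 1 of 664 (0.151%) in wild type male. Read the other way, 89.5%, 75.0% and 97.0% of the barcodes with another casein had Csn2, against 29.8%, 24.8% and 25.0% of the rest. At 2000 UMIs per barcode another casein was found in 7.58%, 10.96% and 10.3% of Csn2-positive barcodes and in at most 0.613% of Csn2-negative ones. The Csn2-positive barcodes then numbered 66, 73 and 165, and the part of depth in the pairing was not tested further.

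In all, 68 epithelial barcodes held Csn1s1, Csn1s2a or Csn3. Of these, 61 held Csn2, 56 held at least 10 Csn2 UMIs and 52 held Aire. The 7 without Csn2 had at most 3 UMIs of the rarer casein, and the highest count of these 3 genes in an uncalled barcode was 2. With at least 3 UMIs of a rarer casein there were 35 barcodes, of which 34 held Csn2, 33 held 10 or more Csn2 UMIs and 31 held Aire. Since each rarer casein was in few barcodes, few overlaps could be seen: 6 barcodes held UMIs of 2 of them and 0 held 3 or more UMIs of 2 of them. Shares among so few positive barcodes are coarse, and 1 overlap is enough to put one above the rest. Csn3 was found in 2 of 7 Csn1s2a-positive barcodes of Foxn1Lin female (28.6%, 3.67 to 71.0) against 2.74% of the rest, and in 1 of 8 in Foxn1Lin male (12.5%, 0.316 to 52.7) against 1.87%. In wild type male it was found in 0 of 12 Csn1s2a-positive barcodes against 1.55% of the rest, and in 1 of 8 Csn1s1-positive ones (12.5%) against 1.43%. No epithelial barcode held all 4 caseins, and 4, 1 and 1 barcodes held 3.

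Individual barcodes show how the ratio between caseins varied from cell to cell. In Foxn1Lin male, a barcode with 232 Csn1s2a UMIs had 116 Csn2 and 9 Aire UMIs and no Csn3 or Csn1s1. A wild-type barcode with 98 Csn3 UMIs had 383 Csn2, 2 Csn1s1 and 1 Aire UMI, whereas the one with the most Csn2 (646 UMIs) had 14 Csn3 UMIs. Csn3 exceeded Csn2 in a wild-type barcode with 55 against 47 UMIs and no Aire, and in a female barcode with 33 against 22. In all, the rarer casein was above Csn2 in 6 of the 35 barcodes with at least 3 of its UMIs. The highest Csn1s1 count in the epithelial set, 11 UMIs in a wild-type barcode, came with 75 Csn2 UMIs. Called barcodes outside the 3 defined types reached 32 Csn1s1 UMIs in wild type male and 16 in Foxn1Lin male.

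**Figure D3:**
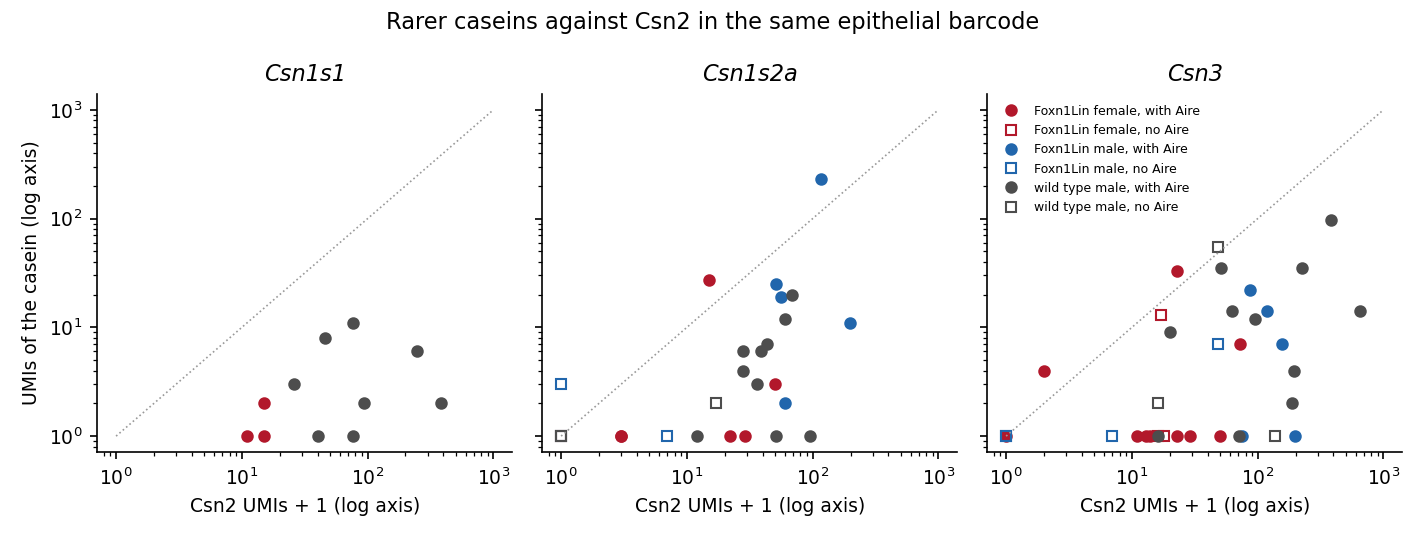
UMIs of each rarer casein (y, log axis) against Csn2 UMIs plus 1 (x, log axis) in the epithelial barcodes that hold that casein, filled circles with an Aire UMI and open squares without, 1 colour per library and a dotted line of equality. Most points with 3 or more UMIs lie right of 10 Csn2 UMIs and below the line, and the topmost is the male barcode with 232 Csn1s2a and 116 Csn2 UMIs.

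Most Csn2-positive barcodes also held Aire at full depth, 73.7%, 68.1% and 76.7% of them. With both genes read after thinning to 2000 UMIs the shares were 60.6%, 39.7% and 51.5%, and with only Csn2 read after thinning 78.8%, 76.7% and 86.7%. An Aire UMI was found in 132 (32.4%), 100 (22.9%) and 268 (29.2%) epithelial barcodes. Csn2 had a UMI in 98 of 132 Aire-positive barcodes of Foxn1Lin female (74.2%, 65.9 to 81.5), 79 of 100 in Foxn1Lin male (79.0%, 69.7 to 86.5) and 194 of 268 in wild type male (72.4%, 66.6 to 77.7). In Aire-negative barcodes it was found in 35 of 276 (12.7%), 37 of 336 (11.01%) and 59 of 649 (9.09%). The intervals are of counting error over the barcodes of a pooled library, so they are no test of this pairing. Aire-positive barcodes were deeper, with median depths of 13818.5, 21273.5 and 21974.5 against 9292.5, 11027.5 and 14183 UMIs.

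In CPM, which takes depth into account, Csn2 was at 499.8 against 58.3, 1458 against 93.4 and 906.9 against 74.3 in Aire-positive and Aire-negative barcodes. These are ratios of 8.57, 15.6 and 12.2. With barcodes thinned to 2000 UMIs and split anew by the Aire UMIs left, the ratios were 5.28, 4.41 and 3.43. With the Aire status of the full barcode kept, they were 5.98, 12.9 and 8.60 at 2000 UMIs and 6.61, 24.3 and 12.2 at 4000. Without barcodes that held 2 or more of the 4 parathyroid markers the ratios at full depth were 12.3, 15.5 and 12.9, and the share of epithelial barcodes with Csn2 was 29.9%, 26.1% and 26.4%. With Aire-positive set at 2 or more UMIs the ratio in Foxn1Lin male was 5.31. Aire-positive barcodes held 84.1%, 89.0% and 87.3% of the epithelial Csn2 UMIs. Of the barcodes with 10 or more Csn2 UMIs, 35 of 41, 47 of 56 and 122 of 141 had Aire.

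By summed UMIs at full depth the rarer caseins lay on the same side. Csn1s2a had 34 UMIs in Aire-positive against 1 in Aire-negative barcodes of Foxn1Lin female, 289 against 5 in Foxn1Lin male and 61 against 3 in wild type male. Csn3 was less uneven, with 51 against 15, 45 against 10 and 225 against 58 UMIs, which gives CPM ratios of 5.52, 8.65 and 6.87. At 2000 UMIs with both genes read after thinning, Csn3 was in 1 of 81 Aire-positive against 3 of 311 Aire-negative barcodes, 0 of 56 against 5 of 361 and 2 of 129 against 8 of 759, so an excess was not detectable and the order turned in Foxn1Lin male. With the Aire status of the full barcode it was in 2 of 131 against 2 of 261, 2 of 98 against 3 of 319 and 8 of 265 against 2 of 623. Required at 2 UMIs, Aire gave Csn3 a log2 fold change of 1.01 in the fit described below, against 2.73 at 1 UMI. Thinned Csn1s2a was in 2, 4 and 6 barcodes with full-depth Aire and in 0 without at 2000 UMIs, and in 1, 3 and 6 against 0, 1 and 1 at 4000. With both genes read after thinning to 2000 UMIs it was in 1 against 1, 2 against 2 and 3 against 3 barcodes, of 81 against 311, 56 against 361 and 129 against 759. All Csn1s1 UMIs of the epithelial set, 4 in Foxn1Lin female and 34 in wild type male, were in Aire-positive barcodes. A further 4 and 58 were in called barcodes outside the 3 defined types, which is 50.0% and 61.7% of the Csn1s1 UMIs of these libraries.

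Detection of Csn2 differed by the number of Aire UMIs, and its amount followed no common order across the libraries. At 1, 2 to 4, 5 to 9 and 10 or more Aire UMIs, Csn2 was detected in 54.5%, 71.4%, 76.7% and 87.5% of barcodes in Foxn1Lin female. In wild type male the shares were 37.1%, 76.9%, 81.6% and 86.2%. In Foxn1Lin male they were 76.5%, 81.8%, 74.1% and 82.4%, with no such order. The Csn2 level in the same bins was 183, 782, 522 and 627 CPM in Foxn1Lin female and 493, 1604, 1626 and 759 CPM in wild type male. In Foxn1Lin male it was 3162, 2421, 649 and 1280 CPM, highest in the bin of 1 Aire UMI, which held only 17 barcodes. In Foxn1Lin female and wild type male the level at 10 or more Aire UMIs was above that at 1, and in Foxn1Lin male it was below. Poisson intervals leave out the spread between barcodes, so they cannot order the bins. Single barcodes carried much of several bins, and 1 barcode with 349 UMIs held 47.6% of the Csn2 UMIs at 1 Aire UMI in Foxn1Lin male. In wild type male 1 barcode with 383 UMIs held 47.2% of those at 1 Aire UMI. With the barcode of most Csn2 left out of each bin, the levels were 156, 492, 420 and 570 CPM in Foxn1Lin female, 1884, 2079, 456 and 1158 in Foxn1Lin male and 271, 947, 1345 and 714 in wild type male. Foxn1Lin male was then highest at 2 to 4 Aire UMIs and Foxn1Lin female at 10 or more. Barcodes with 10 or more Aire UMIs were also the deepest, with medians of 17043, 34232.5 and 26805 UMIs against 12408, 12937 and 19466 at 1 Aire UMI. No Csn2 UMI was found in 34, 21 and 74 of the Aire-positive barcodes.

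**Figure D4:**
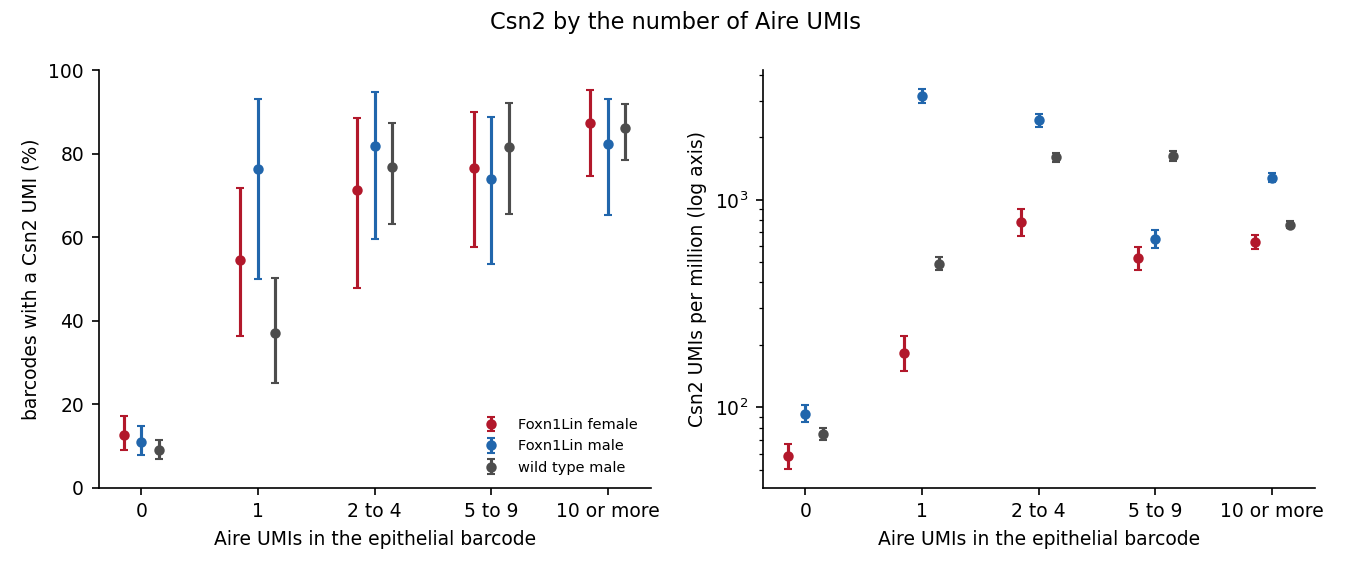
Share of epithelial barcodes with a Csn2 UMI (left, %) and summed Csn2 UMIs per 1e6 (right, log axis) by the number of Aire UMIs in the barcode, 1 colour per library, with 95% intervals of counting error. The share rises from 9.09% to 12.7% without Aire to 82.4% to 87.5% at 10 or more Aire UMIs, while the level is highest at 2 to 4 Aire UMIs in Foxn1Lin female, at 1 in Foxn1Lin male and at 5 to 9 in wild type male. The value at 1 in Foxn1Lin male, 3162 CPM, is 1884 CPM without its highest barcode.

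To set the caseins beside all other genes, UMIs were summed per library over Aire-positive and over Aire-negative barcodes and compared with edgeR, the library as a block and the 3 libraries as replicates of the contrast. Of 15716 genes tested, 5345 (34.0%) passed a Benjamini-Hochberg adjusted p of 0.05, with 2904 (18.5%) higher and 2441 (15.5%) lower in Aire-positive sums. Of the 4 caseins 3 passed the filter on low counts and Csn1s1 did not. Their log2 fold changes, for which no p is given because they were chosen with this pairing known, were 3.52 (SE 0.19) for Csn2, 6.04 (SE 0.35) for Csn1s2a and 2.73 (SE 0.23) for Csn3. All 3 genes were higher in 3 of 3 libraries, beside a median log2 fold change of 0.0055 over all genes tested. By size they ranked 691 (Csn2), 115 (Csn1s2a) and 1190 (Csn3) of 15716, so Csn2 is one of many genes with such a difference. Csn1s2a had under 10 UMIs in the Aire-negative sum of every library and entered the fit through its Aire-positive sums, where lone barcodes held much of it, so its value and rank rest on a few UMIs. Its log2 fold change was 3.31 with Aire required at 2 UMIs. In the summed Aire-positive barcodes Csn2 stood at rank 222, 77 and 119 by abundance, and in the Aire-negative ones at rank 3298, 2027 and 2843.

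Some barcodes with much Csn2 had no Aire UMI. There were 6, 9 and 19 with 10 or more Csn2 UMIs, and 5, 6 and 16 of them held at least 2 of the Aire-stage mTEC markers Aire, Fezf2, Cd80 and Ubd. Fezf2, a second regulator of promiscuous expression, was detected in 66.7%, 55.6% and 52.6% of them. Among the Csn2-high barcodes with Aire, Fezf2 was detected in 82.9%, 89.4% and 90.2%. In the lineage-trace libraries the reporter was found in 94.3% and 93.6% of the Csn2-high, Aire-positive barcodes, near the 88.2% and 92.7% of all epithelial barcodes, and in 0% of those of the wild type.

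Epithelial barcodes without Aire were then grouped by marker lists, a barcode counting for a list with at least 2 of its markers, so a barcode can count for several lists. Those with Aire-stage markers had Csn2 in 40.9%, 38.6% and 34.0%, against 3.81%, 6.85% and 4.71% of the others. Lists of the specialised mTEC types that resemble peripheral epithelium differed from each other. Csn2 was detected in 52.2%, 61.8% and 22.7% of barcodes with M-cell markers (Ccl20, Gp2, Tnfaip2, Ccl9, Spib), 12 of 23, 21 of 34 and 15 of 66 barcodes. It was detected in 6.25%, 12.5% and 6.36% of those with tuft markers such as Dclk1 and Trpm5. Cortical TEC markers such as Prss16 gave 14.6%, 11.2% and 8.30%, and Ccl21a-mTEC markers 14.6%, 9.59% and 7.12%. Basal, goblet and aaTEC1 markers gave shares between 7.46% and 18.3%. Several lists were broad. With or without Aire, aaTEC1 markers (Cldn3, Plet1, Krt8, Krt5) counted 258, 300 and 664 of the 408, 436 and 917 epithelial barcodes. Ccl21a-mTEC markers counted 316, 354 and 784 and cortical TEC markers 177, 142 and 413. The shares for these lists are therefore not those of separate cell types. Proliferating and neuroendocrine lists had 2 to 13 such barcodes per library, too few to place.

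**Figure D5:**
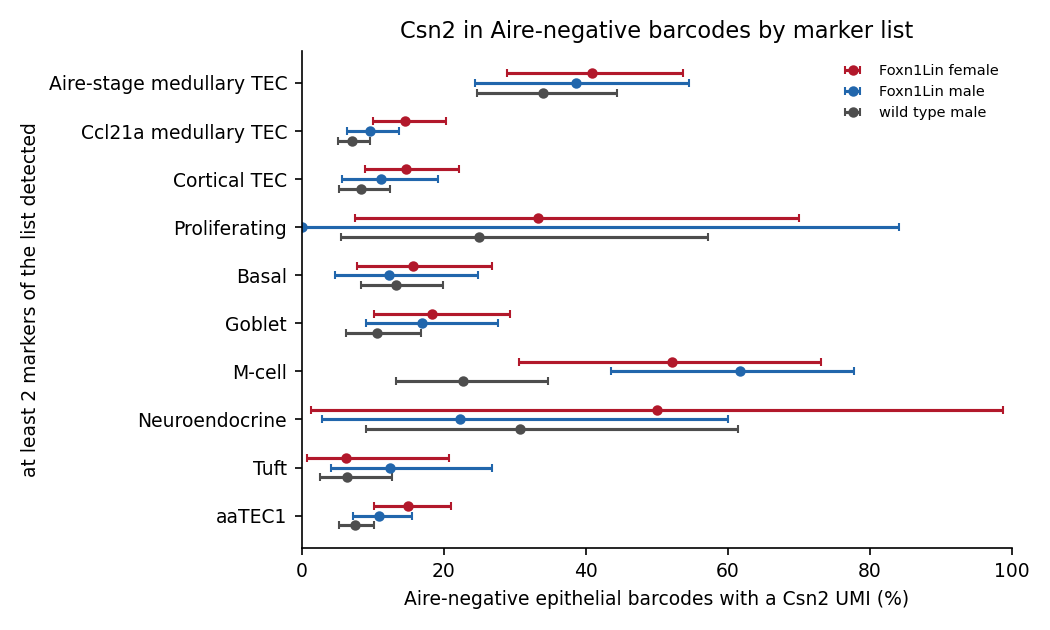
Share of Aire-negative epithelial barcodes with a Csn2 UMI (x, %) among barcodes with at least 2 markers of the list named on the y axis, 1 colour per library, with 95% Clopper-Pearson intervals. Aire-stage markers gave 34.0% to 40.9% in the 3 libraries, and M-cell markers gave 52.2% and 61.8% in the Foxn1Lin libraries and 22.7% in wild type male. Most other lists lay below 20%.

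Markers of hematopoietic cells moved with Csn2, although CD45-positive cells had been depleted. The summed level of the 10 markers was 2061, 1579 and 1408 CPM in barcodes with 10 or more Csn2 UMIs. It was 363, 135 and 133 CPM in barcodes without Csn2 and 308, 975 and 357 CPM in those with Aire and no Csn2. The markers that carried the sum were Cd52, with a UMI in 97.6%, 87.5% and 93.6% of the Csn2-high barcodes, Laptm5 (90.2%, 80.4% and 85.1%), Rac2 (87.8%, 71.4% and 69.5%), Coro1a (65.9%, 60.7% and 46.8%) and Fcer1g (39.0%, 32.1% and 40.4%). Ptprc, which encodes CD45 itself, was found in 9.76%, 7.14% and 2.13% of Csn2-high barcodes and in 13.1%, 1.25% and 2.56% of those without Csn2. Cd3e and Lck of T cells, Cd79a of B cells and Tyrobp of myeloid cells were each found in at most 7.32% of Csn2-high barcodes. In all, 6, 8 and 9 of the 10 markers had a higher CPM in the Csn2-high set. Parts that hematopoietic cells or their RNA play in these counts were not tested beyond these values.

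The genes whose levels across epithelial barcodes were most like the summed caseins were ranked by the lowest of 3 Pearson r, 1 per library, of log-scaled levels over 408, 436 and 917 barcodes. Barcodes of a library share its depth and its free RNA, and r is given as a description. Of 15560 genes compared, the 10 closest were Srgn (lowest r 0.68), Ubd (0.66), Cyba (0.65), Cd52 (0.62), Calcb (0.60), Ctsz (0.58), Gm29461 (0.57), Serpinb9 (0.56), Ncf1 (0.55) and AW112010 (0.55). Ubd encodes a ubiquitin-like protein and is a marker of Aire-stage mTECs, and Srgn, Cyba, Cd52 and Ncf1 are best known from blood cells. Aire stood at rank 22 with a lowest r of 0.51, Cd80 at rank 62 and Fezf2 at rank 87. Of the 10 genes, 6 were also among the 10 closest when detection after thinning to 2000 UMIs was correlated.

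Genes of milk other than the members were a mixed group. The lists of other genes were drawn up with earlier results of these data known, so the p-values printed for their genes are no independent evidence. Of 11 listed milk protein genes 7 could be tested, 4 were higher in Aire-positive barcodes and 0 lower (0 lower also at an unadjusted p under 0.05 and in DESeq2), beside 18.5% higher and 15.5% lower over all genes. The median log2 fold change was 2.32 beside 0.0055 over all genes. Wap (whey acidic protein) was found in 1, 1 and 9 epithelial barcodes with 4, 27 and 50 UMIs, at 1.83, 11.2 and 6.62 CPM in Aire-positive against 0, 0 and 0.325 CPM in Aire-negative barcodes. It entered the fit through the Aire-positive sums, so its call is given no weight. Wap fell under the count filter without Foxn1Lin male or without wild type male, and the other 3 calls, which are 3 of the 6 tested genes that had 10 or more UMIs in an Aire-negative sum, held with any library left out. Over all genes with as many there, 15.6% were higher. Lpo (lactoperoxidase, an antimicrobial enzyme of milk and other secretions) was found in 107, 99 and 252 barcodes and rose by 2.93 (SE 0.15, edgeR adjusted p = 0.0013). Muc1, a mucin of many secretory epithelia, and Spp1 (osteopontin) rose by 2.72 and 2.32. Lalba (alpha-lactalbumin, which makes lactose synthesis possible) was found in 0, 2 and 0 epithelial barcodes with 1 UMI each. Glycam1 was mostly outside the epithelium, at 707, 24.7 and 117.7 CPM in endothelial barcodes against 10.8, 1.43 and 0.416 CPM. Ltf (lactoferrin), Mfge8 and Glycam1 did not pass the test, with log2 fold changes of -0.19, 0.65 and 1.97. Csn1s2b, the remaining casein of the locus, was detected in 1, 2 and 4 barcodes, each of which also held Csn2.

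Of the 5 listed genes of the milk fat globule and its lipid, 4 could be tested, and 2 were lower and 0 higher in edgeR (1 higher at an unadjusted p under 0.05 and in DESeq2), on a background of 15.5% lower and 18.5% higher. Xdh and Plin2, which work in the envelopment and storage of lipid droplets, were lower in Aire-positive barcodes by log2 fold changes of -2.02 and -1.21. Cidea (-0.97) and Fabp3 (3.68, SE 1.14) did not pass the test, and Btn1a1 had 3 UMIs in 2 wild-type barcodes. The median was -1.09. Both calls were lost without wild type male, with adjusted p of 0.058 and 0.0828 in edgeR.

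All 11 regulators of lactation on the list could be tested, and 2 were higher and 3 lower, with a median log2 fold change of -0.14. At an unadjusted p under 0.05 in edgeR 2 were higher and 5 lower, and over all genes 18.5% were higher and 15.5% lower by adjusted p. Stat5a, the factor that carries the prolactin signal to milk genes, rose by 2.17 (SE 0.13, edgeR adjusted p = 0.0015), at 155.0 against 38.0 CPM, 161.6 against 34.7 and 179.5 against 34.8. Its close paralog Stat5b rose by 0.85. The prolactin receptor Prlr was found in 10.8%, 6.65% and 9.27% of epithelial barcodes and gave 0.90 (SE 0.39, edgeR adjusted p = 0.137). Elf5, a factor of alveolar differentiation in the breast, was found in 2.94%, 1.61% and 3.93% and gave 0.62 (SE 0.48). Socs2, a feedback inhibitor of cytokine signalling, the glucocorticoid receptor Nr3c1 and the estrogen receptor Esr1 were lower by log2 fold changes of -0.60, -0.68 and -1.01. Of the 5 genes that passed, Stat5a alone kept its call without wild type male, with edgeR adjusted p between 0.0705 and 0.244 for the other 4, and Socs2 also lost it without Foxn1Lin male (edgeR adjusted p = 0.0884). Jak2, Cish, Pgr and Gata3 did not pass the test. Over barcodes, Stat5a was rank 966 and Prlr rank 3286 in likeness to the summed caseins, with lowest r of 0.17 and 0.03.

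Most neighbours of the members had a UMI in the epithelium, but few had enough for a test. Of the 23 protein-coding genes between the members or next to them, 21 were in the files, 13 had a UMI in an epithelial barcode and 3 could be tested, of which 0 passed in edgeR, 0 had an unadjusted p under 0.05 and 1 (Amtn) passed in DESeq2. Over all genes tested 18.5% were higher and 15.5% lower, and 3 genes are too few to set against these shares. The 3 were Amtn (log2 fold change 2.66, edgeR adjusted p = 0.129), Sult1e1 (1.27, edgeR adjusted p = 0.128) and Sult1d1 (0.45, edgeR adjusted p = 0.692), with a median log2 fold change of 1.27. Amtn, which encodes an enamel matrix protein, was found in 6, 5 and 10 barcodes, of which 5, 4 and 9 held Csn2. Sult1e1, an estrogen sulfotransferase that lies 74.6 kb outside the cluster, was found in 2, 16 and 36 barcodes, of which 2, 7 and 19 held Csn2. Its level was 0.523, 7.27 and 8.63 CPM in epithelial and 0.975, 54.6 and 42.7 CPM in fibroblast barcodes. Odam and Prr27, which lie between Csn1s2a and Csn3, were found in 0, 2 and 2 and in 0, 0 and 2 barcodes. Prol1 was found in 2 barcodes of Foxn1Lin male, 1 of them with 73 UMIs, and both held Csn2.

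Genes of other organs were set beside the caseins. Of 30 listed genes 29 were in the files and 22 could be tested, and 12 were higher and 0 lower in edgeR (1 lower at an unadjusted p under 0.05 and 0 in DESeq2), with 18.5% higher and 15.5% lower over all genes. The median log2 fold change was 2.61. Of the 22, 7 had under 10 UMIs in the Aire-negative sum of every library and entered the fit through the Aire-positive sums, which favours a higher value, and 6 of the 12 calls were among them. Beside 15.6% of all such genes, 6 of the other 15 were higher (Apoa1, Apoa4, Crp, Fabp2, Gad1 and Tff3). Their log2 fold changes were 4.31 for Gad1 (a GABA-synthesising enzyme of neurons and islets) and 3.32 for Apoa1 (an apolipoprotein of liver and gut). They were 3.47 for Tff3, 2.66 for Fabp2, 2.55 for Crp and 2.34 for Apoa4. The 6 calls that entered through the Aire-positive sums are given no weight. These were Gcg (glucagon of the pancreas, 6.22), Gh (pituitary growth hormone, 4.28), Alb (serum albumin of liver, 5.25), Chrna1 (7.46), Afp (5.01) and Ckm (3.45). Alb was higher in 2 of 3 libraries, and lone barcodes held 34 of its 36 UMIs in Foxn1Lin male and 155 of 165 in wild type male. Ins2 (1.80), Reg3g (-0.50) and Fabp9 (-0.02) were among those that did not pass. Without wild type male 4 of the 12 calls held, Apoa4, Fabp2 and Tff3 lost theirs (edgeR adjusted p from 0.067 to 0.0956) and Afp, Alb, Chrna1, Ckm and Gh fell under the count filter. Without Foxn1Lin male 8 held, and without Foxn1Lin female 11. On the list of 20 regulators and mTEC maturation genes, which includes Aire, the gene that split the barcodes, 13 were higher and 2 lower, with a median of 1.31, and Irf8, Ltbr and Top1 lost their calls without wild type male (edgeR adjusted p from 0.0555 to 0.0937). Fezf2 rose by 3.22, Cd80 by 3.33, Irf4 by 3.43 and Sirt1, a deacetylase that acts on Aire, by 2.90, while Top1 and Ltbr were lower by log2 fold changes of -0.68 and -1.34.

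The 10 genes with the largest log2 fold change in the contrast had between 0 and 1 UMI in all Aire-negative barcodes of a library, so their fitted values depend on the prior count and their UMIs are given. They entered the fit through their Aire-positive sums, and a p against a count near 0 is not printed. Madcam1, an adhesion molecule of mucosal vessels, had 154, 111 and 237 UMIs in 17, 14 and 47 Aire-positive barcodes, of which 16, 12 and 42 also held Csn2. Bglap (osteocalcin of bone) was found in 9, 2 and 12 barcodes, and each of these held Csn2. Calcr (the calcitonin receptor) was found in 4, 1 and 4 barcodes and had 115 UMIs in its male barcode, which lacked Csn2. Ngp (a neutrophil granule protein), Defb45 (a defensin) and Crybb2 (a lens crystallin) were found in 3, 4 and 7, in 5, 6 and 7 and in 9, 8 and 10 barcodes. Il22, Ptpn5, Gmnc and Ces1h were found in 2 to 11 barcodes per library. Choosing genes by the largest fold change favours those with next to no UMI in Aire-negative barcodes, so that they were found in few barcodes follows from the choice.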

How the data were processed

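UMI counts were read from the deposited matrices as they are, and the authors made them with Cell Ranger 7.0.1 (version in the header of the called matrices) on GRCm38 with reporter sequences added. Another version stands in the header of the raw matrices, but at called barcodes 0 entries differed between them. Saturation and reads in cells are a percent of reads from the deposited library summaries. Columns not used numbered 0.

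CPM is a class's summed UMIs of a gene per 1e6 of its UMIs. Called barcodes had no further filter, and doublets were kept in the main values. Scrublet (scanpy 1.11.5) marked 0, 5 and 2 barcodes by its automatic threshold and so did not work as a caller. As an alternative, the highest scores at the labels' rate of 3.9% were left out, with all barcodes tied at the threshold (349, 148 and 219 barcodes). Thinning drew 2000 UMIs per barcode without replacement and left out shallower barcodes (16, 19 and 29 epithelial). A count of 0 allows 3 counts. Intervals came from scipy 1.17.1.

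The Aire contrast used edgeR 4.0.16 (quasi-likelihood, TMM, filterByExpr) in R 4.3.3 with Benjamini-Hochberg adjustment and was tested on simulated data. Its p-values measure the spread between 3 pooled libraries that differ in sex and genotype. Members, marker lists and gene lists were chosen with earlier results of these data known. Genes named were the members, Aire, genes of these lists, the 10 most like the summed caseins and the 10 with the largest rise in Aire-positive barcodes. Alternatives were the thresholds on Epcam, Aire and casein UMIs, thinning depth, quality and doublet filters, the set of uncalled barcodes, DESeq2 1.42.0, no TMM, no count filter, no block and each library left out. Added after seeing the data were leaving out the highest barcode of each Aire bin, leaving out barcodes with parathyroid markers, keeping Aire status before thinning, and letting in barcodes with Pecam1 or Pdgfra. RefSeq gave the promoter windows and their starts.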

Additional observations from a re-analysis of the deposited data

How the results depend on the processing

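The share of epithelial barcodes with Csn2 was 27.3% with Epcam at 1 or more and 37.5% at 4 or more in Foxn1Lin female, and 25.7%, 21.8% and 22.6% (Foxn1Lin female, Foxn1Lin male, wild type male) when 2 Csn2 UMIs were required. Thinned to 4000 UMIs it was 26.2% in Foxn1Lin female and 21.9% in wild type male. Epithelial Csn2 CPM was 241.8 (female) and 353.8 (wild type) with Epcam at 4 or more, 214.4, 512.4 and 341.6 without the highest barcode, and 531.6 (Foxn1Lin male) and 347.7 (wild type) when barcodes with Pecam1 or Pdgfra were let in, an alternative chosen after seeing the data. In uncalled barcodes it was 66.0, 345.5 and 302.0 at no more than 100 UMIs and 121.5, 376.3 and 330.6 in barcodes whose depth lay within 2 times that of the fullest bin. At over 500 UMIs it was 62.4, 32.4 and 52.7. Co-detection of another casein was 7.58% in Foxn1Lin female at 2000 UMIs.

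The ratio of Csn2 CPM between Aire-positive and Aire-negative barcodes was 5.28, 4.41 and 3.43 at 2000 UMIs and 3.87, 5.84 and 8.52 at 4000. With the Aire status of the full barcode, chosen after seeing the data like the parathyroid alternative, it was 5.98, 12.9 and 8.60 at 2000 and 6.61, 24.3 and 12.2 at 4000. Without barcodes that held 2 or more parathyroid markers it was 12.3 in Foxn1Lin female. With 2 Aire UMIs required it was 5.31 (Foxn1Lin male) and 8.37 (wild type), with Epcam at 4 or more 18.0 and 10.9, with doublets left out 17.8 (Foxn1Lin male), and with Pecam1 or Pdgfra let in 9.60 (wild type). It stayed above 1 in each of these. The log2 fold changes ranged over the settings from 2.79 to 3.69 for Csn2, 3.31 to 6.86 for Csn1s2a and 1.01 to 2.90 for Csn3.

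Leaving out a library gave 1455 to 4395 genes called in place of 5345. Without wild type male it was 1455, which leaves 2 libraries and fewer barcodes, and 13 named genes then lost their call, among them Xdh, Plin2, Stat5b, Socs2, Nr3c1 and Esr1. The fit with no library block called 4026 genes, DESeq2 5004, no TMM 5305, no filter 5827, 2 Aire UMIs 6244 and doublets left out 4906. By detection after thinning, 6 of the 10 genes most like the caseins stayed among the 10 closest. Few barcodes limit the rarer caseins, since 3 to 14 per library hold each where it was found. Free RNA in called barcodes was not measured. Leaving out the highest barcode of each Aire bin was chosen after seeing the data. The Aire contrast is paired within each library by the library block. Between the groups, no paired analysis was possible because each is 1 library.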
